A study of Nothobranchius furzeri with 168 samples.

Results

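Brain gene expression at day 147 was compared between males of 2 strains of the turquoise killifish, Nothobranchius furzeri. The comparison used the 6 brain libraries of GRZ-D males and the 3 brain libraries of MZCS-0403 males that are labelled with this age, 9 of the 168 libraries of the series. Each library is 1 fish, and all 9 are male and 147 days old, and the labels name no transgene, mutation or treatment in either strain. The single MZCS-0403 female of day 147 was not part of the comparison, and its values are given for the named genes. The series as a whole measured brain and skin of 84 fish of 3 strains at several ages.

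The turquoise killifish lives in seasonal pools of southeastern Africa that dry out, and it matures and ages within a few months. GRZ strains descend from a population of a dry region and are known for a short lifespan in captivity, whereas strains founded from populations of wetter regions, the MZM and MZCS strains among them, live longer. The short-lived and longer-lived strains are therefore used to study how lifespan and ageing differ within a species, with the brain as a tissue in which ageing phenotypes of the fish are well described. At the same calendar age the strains need not be at the same stage of life, and no label gives the stage.

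The deposited table identifies genes by an ID alone, without symbol, position or sequence, and 0 of its 26739 IDs matched the RefSeq gene table of this species. Lists of neuronal, glial, blood, skin, immune, cell cycle, ribosomal and respiratory chain genes could therefore not be applied. The results are given by the number, size and level of the genes that differed, and by single IDs that stand for no named function here.

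The 6 GRZ-D libraries held 26604612 to 41254724 counts and the 3 MZCS-0403 libraries 27574915, 18918818 and 23709628, a difference in means that did not pass an exact permutation test (2-sided p = 0.0833, adjusted over 3 library measures 0.0833). The 10 most counted genes took 3.96% to 4.34% of the counts in GRZ-D and 4.84%, 6.02% and 5.15% in MZCS-0403 (exact permutation p = 0.0119, adjusted 0.0179). Detection was counted over the 20714 genes that passed the filter on these libraries. Between 18253 and 18488 of them reached 1 CPM (counts scaled to the size of the library) in GRZ-D, against 18018, 17905 and 17711 in MZCS-0403 (exact permutation p = 0.0119, adjusted 0.0179). With 6 and 3 libraries, 0.0119 is the smallest p this test can give. The latter 2 measures separated the strains without overlap, and their part in the differences below was not tested. Detection was counted after a filter that a gene absent from MZCS-0403 could pass in any 3 of the 6 GRZ-D libraries. A gene absent from GRZ-D had to pass in all 3 MZCS-0403 libraries. The part of this filter in the detection result was not tested.

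As a check of the tissue label, each library was correlated across 17879 genes with the mean brain and skin profiles of day 21. The 9 libraries correlated at 0.916 to 0.965 with brain and at 0.339 to 0.385 with skin. All 42 libraries of the fit described below were closer to brain. In the series, 8 of the 84 libraries labelled brain were closer to skin, among them all 6 of the GRZ-D males of day 49, and none of these 8 entered the fit.

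The strains were distinct at the level of whole profiles. Across genes, brain libraries of day 147 correlated at 0.977 to 0.992 within GRZ-D and at 0.974 to 0.979 within MZCS-0403. Between the strains the correlation was 0.921 to 0.941, so every pair within a strain was more alike than any pair between strains. The first principal component of the 9 libraries held 66.2% of the variance and placed GRZ-D at 34.4 to 48.5 and MZCS-0403 at -94.6 to -76.04. The second component held 9.83%. The MZCS-0403 female correlated at 0.972 to 0.980 with the MZCS-0403 males and at 0.930 to 0.936 with the GRZ-D males. The genes behind these correlations are not independent replicates.

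At day 147, 10221 of 20714 genes tested differed between the strains (49.3%), 5535 of them higher and 4686 lower in GRZ-D. The test was edgeR's quasi-likelihood F-test, and a gene was called at a Benjamini-Hochberg adjusted p under 0.05. It was fitted to the 42 brain libraries of males of both strains at all ages, except GRZ-D at day 49, so that the spread between fish was estimated over more than 9 libraries. An unadjusted p under 0.05 was reached by 11399 genes. The genes called held 52.8% to 54.3% of the counts of the 20714 tested genes in each of the 9 libraries compared. Brain here means whole tissue, in which fewer cells of a type and less RNA per cell cannot be told apart. With all 84 libraries labelled brain in the fit, including the 8 closer to skin, 5721 genes were called, and 5704 of them were among the 10221 with the same direction.

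Most differences were small. Of the genes called, 7209 (70.5%) differed by less than 2-fold, and the median log2 fold change was 0.76 among the higher and -0.46 among the lower genes. At least 2-fold differences were called in 3012 genes (14.5% of those tested), 2169 higher and 843 lower in GRZ-D. Large differences were therefore mostly in the direction of higher counts in GRZ-D, while all calls were split more evenly. The genome build and the sequencing batch are not given. Whether reads of both strains mapped equally well, and the part of mapping or batch in these differences, was not tested. The excess of higher genes among all calls was lost in other fits: the split was 4881 higher and 5759 lower with another reference library for the TMM scaling (GRZ-D replicate 1 of day 35), 5347 higher and 5395 lower with only the 9 libraries fitted, 4578 and 5375 without MZCS-0403 replicate 1, and 4233 and 4932 without MZCS-0403 replicate 4. The split at 2-fold was 2033 and 928 with the other reference library and 2129 and 880 with only the 9 libraries. It was 1865 and 996 without MZCS-0403 replicate 4. Without a filter on low counts it was 2410 and 1204, and with a filter at a minimum count of 50 it was 1507 and 508. At least 16-fold differences were fitted in 249 genes, 174 higher and 75 lower. The fitted size depends on a small added count in the 44 higher genes with 0 counts in every MZCS-0403 library and the 4 lower genes with 0 counts in every GRZ-D library. With only these genes set to the bound of a floor of 3 counts per library, 136 higher and 72 lower genes reached 16-fold. Both medians were as above. Genes with a few counts in the lower strain kept their fitted size, on which single counts and the added count weigh too.

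The CPM of the 6 GRZ-D libraries lay all above those of the 3 MZCS-0403 libraries in 5028 genes and all below in 4323, together 9351 genes (45.1% of those tested). Of the genes called, 8350 (81.7%) had no overlap between the strains. In the other called genes the ranges of the strains overlapped. Over all genes, the median between-fish SD of log2 CPM was 0.129 in GRZ-D and 0.185 in MZCS-0403 at day 147. When 1 of the 9 libraries was left out, the number of calls varied most among the MZCS-0403 fish. It was 8740 without MZCS-0403 replicate 3, 9165 without replicate 4 and 9953 without replicate 1. Without 1 GRZ-D library it was 9767 to 9948. In all 9 of these fits, 6736 genes (65.9%) were called in the same direction.

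The direction of the differences varied with the expression level. With genes ranked by level and cut into 10 classes of equal size, in the lowest class, 665 were higher and 271 lower in GRZ-D, with a median log2 fold change of 0.54 over all 2072 genes of the class. In the highest class, 467 were higher and 618 lower, with a median of -0.03. Differences of at least 2-fold were called in 870 of the 2072 genes of the lowest class and in 46 genes (2.22%) of the highest. In other fish at day 21 the median of the same lowest class was 0.04, and at days 35 and 39 it was -0.29. Among genes that passed the filter, those of low level were thus more often higher than lower in GRZ-D at day 147. The libraries with more genes above 1 CPM and a lower share of the 10 most counted genes were those of GRZ-D. Other ages were counted over the same genes, which had been filtered on the libraries of day 147. Among the other MZCS-0403 males, the number of genes above 1 CPM ran from 17981 to 18293 at day 21 and from 18387 to 18829 at day 39, and was 18106 and 18127 in the males of day 287. GRZ-D had 17963 to 18167 at day 21 and 18201 to 18359 at day 35. The filter asked for enough counts in as many of the 9 libraries as the smaller strain has. A gene absent from GRZ-D thus had to pass in all 3 MZCS-0403 libraries, and a gene absent from MZCS-0403 in any 3 of 6. The part of this filter and of these library measures in the shift was not tested.

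**Figure D1:**
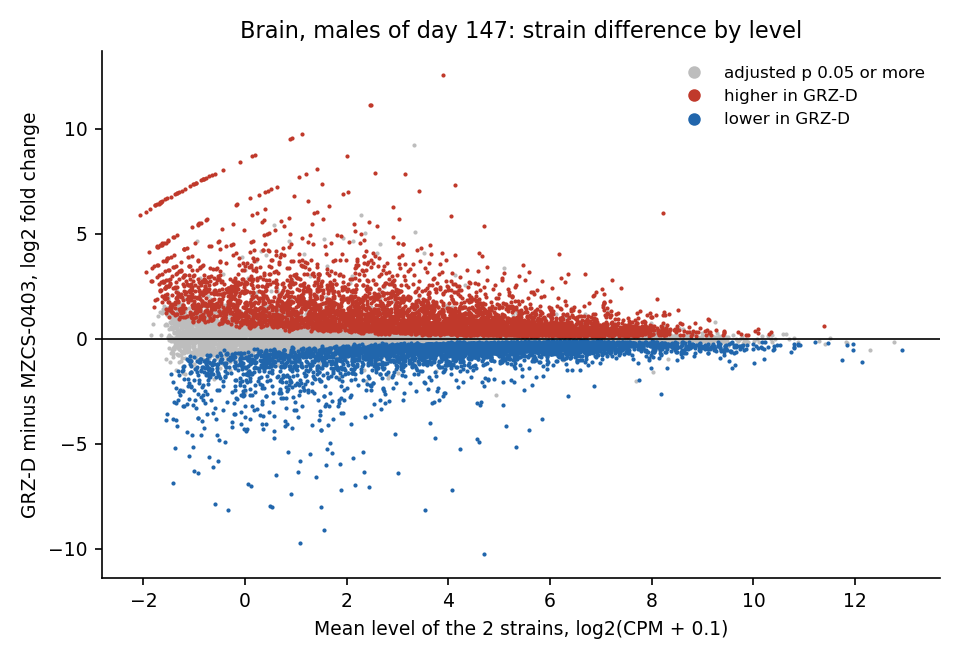
Log2 fold change of GRZ-D against MZCS-0403 in brain at day 147 (vertical axis) by the mean level of the strains, as log2 of CPM plus 0.1 (horizontal axis), 1 point per gene for 20714 genes. Red points are the 5535 genes higher and blue points the 4686 genes lower in GRZ-D; large differences thin out toward high levels, and the oblique rows of red points at low level include genes with 0 counts in MZCS-0403.

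Named genes were taken by rule, the largest fold and the largest difference in mean CPM in each direction among called genes without overlap. Nfu_g_1_011306 had the largest fold among genes higher in GRZ-D. Its brain level in GRZ-D ran from 27.9 to 32.5 CPM with a median of 28.9, and all 3 MZCS-0403 libraries had 0 counts. GRZ-D was thus at least 180-fold higher (29.4 ± 1.67 CPM, SD, n = 6; adjusted p = 3.02e-19, edgeR). The gene was also at 0 in the MZCS-0403 female and in both MZCS-0403 males of day 287. It was present in every GRZ-D male brain of days 21, 35 and 100, with mean levels of 26.5 CPM (day 21), 26.6 CPM (day 35) and 32.3 CPM (day 100). In MZCS-0403 it had at most 1 count per library at day 21, and 0, 0, 3 and 13 counts at day 39. GRZ-D was thus high at its ages listed here and MZCS-0403 at or near 0 at its own. These are counts of mapped reads, and whether reads of this gene mapped equally well in both strains was not tested. Males of the strains share only days 21 and 147.

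Nfu_g_1_018902 had the largest excess in mean CPM in GRZ-D. Its level ran from 3094 to 3468 CPM with a median of 3151 in GRZ-D, and was 2216, 2035 and 2093 CPM in MZCS-0403. The ranges were well apart, yet the ratio of the means was 1.52 (log2 fold change 0.61, SE 0.08; edgeR, adjusted p = 1.08e-07). The MZCS-0403 female had 2173 CPM, within the range of the males of its strain. GRZ-D was higher at day 21 as well (log2 fold change 0.48, adjusted p = 5.45e-08, edgeR) and at days 35 and 39 (0.31, adjusted p = 4.40e-04, edgeR).

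Nfu_g_1_007450 had the largest fold among genes lower in GRZ-D. It had 0 counts in 4 of the 6 GRZ-D libraries, 5 counts in replicate 3 and 2 in replicate 4, against 43.0, 74.5 and 37.6 CPM in MZCS-0403. The mean in MZCS-0403 was 51.7 ± 19.9 CPM (SD, n = 3) (log2 fold change -10.24, SE 0.56; edgeR, adjusted p = 8.19e-16). With so few counts in GRZ-D the fitted value depends on single libraries, and it ran from -11.53 without GRZ-D replicate 3 to -9.88 without MZCS-0403 replicate 3. In MZCS-0403 the mean was 6.58 CPM at day 21 (n = 6), 27.3 at day 39 (n = 4) and 30.5 at day 287 (n = 2). The MZCS-0403 female of day 147 had 18.6 CPM, below the males of its strain. GRZ-D libraries of day 21, 35 and 100 had at most 3 counts. All these MZCS-0403 libraries were thus above all these GRZ-D libraries, although the strains share only days 21 and 147.

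Nfu_g_1_013001 had the largest deficit in mean CPM in GRZ-D. Its level ran from 2334 to 3633 CPM with a median of 2891 in GRZ-D, and was 5139, 9637 and 3706 CPM in MZCS-0403. The strains were apart by a narrow margin, and MZCS-0403 replicate 3 lay far above the others. The log2 fold change was -1.09 (SE 0.18; edgeR, adjusted p = 3.15e-06), with a ratio of means of 2.14. It was -0.62 without MZCS-0403 replicate 3 and -1.40 without replicate 4, and it was called without either. The strain difference at day 21 did not pass the test (-0.29, adjusted p = 0.0914, edgeR), nor at days 35 and 39 (0.13, adjusted p = 0.528, edgeR). Tested directly, the strain difference changed from day 21 to day 147 by -0.80 (SE 0.23; edgeR, adjusted p = 0.00657). The MZCS-0403 female had 5143 CPM.

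**Figure D2:**
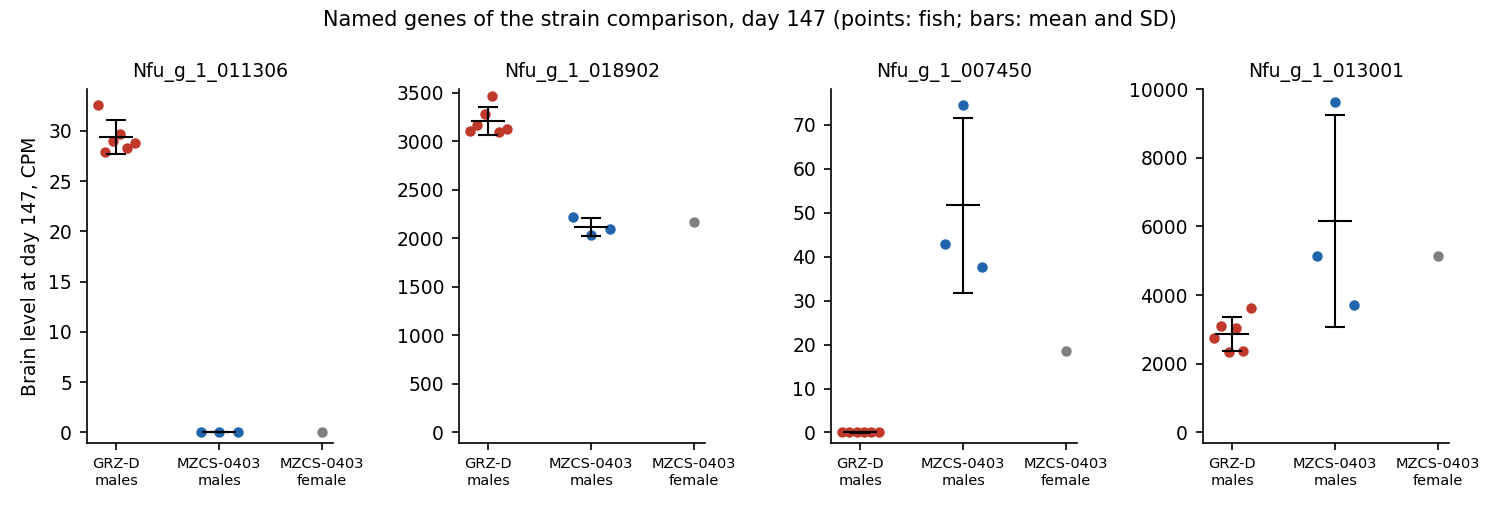
Brain level in CPM (vertical axes, linear from 0) of the 4 named genes at day 147 in 6 GRZ-D males, 3 MZCS-0403 males and the MZCS-0403 female; points are fish and bars give the mean and SD. Nfu_g_1_011306 is at 0 in all MZCS-0403 fish, Nfu_g_1_018902 differs 1.52-fold with separate ranges, and the strains nearly meet in Nfu_g_1_013001.

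A few expressed genes had close to no counts in 1 strain. Absence here means absence of counts, and whether reads of both strains mapped equally well to these genes was not tested. At most 3 counts in every MZCS-0403 library of day 147, with a mean level of 5 CPM or more in GRZ-D, were found for 14 genes, and 13 of them were called. Their mean levels in GRZ-D ran from 5.05 to 29.4 CPM with a median of 7.84. Such a mean can rest on single fish. The GRZ-D median was 1.16 CPM in Nfu_g_1_007603 and 2.17 CPM in Nfu_g_1_006766, against 28.9 CPM in Nfu_g_1_011306. The gene not called, Nfu_g_1_010112, had a mean of 19.8 CPM. In the reverse direction 6 genes met the criterion, all called, at 5.02 to 22.9 CPM with a median of 6.37. There the limit of 3 counts had to hold in 6 GRZ-D libraries, which held more counts on average. For the 14 it had to hold in only 3 MZCS-0403 libraries. The criterion was thus harder to meet for the 6, and the numbers 14 and 6 cannot be compared between the strains. These genes were set by their day 147 counts, so other libraries show how far the absence extends. Of the 14, 13 had at most 3 counts in the MZCS-0403 female, 9 in both day 287 males, 5 in all 6 day 21 males and 4 in all 4 day 39 males. Of the 6 genes of MZCS-0403, 5 had at most 3 counts in all 8 GRZ-D brains of day 21, 4 in all 6 of day 35 and 3 in all 7 of day 100. In the males of other ages the near absence thus held for fewer of these genes than at day 147, where it was the criterion.

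Whether the difference of day 147 was present earlier was examined in other fish: 8 GRZ-D and 6 MZCS-0403 males of day 21, and 6 GRZ-D males of day 35 set against 4 MZCS-0403 males of day 39. These comparisons share no library with that of day 147, although the ages of the second pair differ by label. At day 21, 8221 of the 20714 genes differed (39.7%), 4629 higher and 3592 lower in GRZ-D, and at days 35 and 39 it was 11511 (55.6%), 5836 higher and 5675 lower. Of the genes called at both day 147 and day 21, 4150 of 4767 (87.1%) had the same direction. They were 40.6% of the day 147 list and 50.5% of the day 21 list. With days 35 and 39 the same direction was seen in 5598 of 6742 genes called at both (83.0%), which were 54.8% of the day 147 list and 48.6% of the other list. Across all genes the log2 fold change of day 147 correlated with that of day 21 at 0.625 and with that of days 35 and 39 at 0.526, from 1 fit over genes that are not independent.

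By direction, 2231 of the 5535 genes higher in GRZ-D at day 147 were higher at day 21, 293 were lower and 3011 were not called. Of the 4686 lower genes, 1919 were lower at day 21, 324 higher and 2443 not called. The direction was the same at day 21 in 49.2% of the genes called at 2-fold or more at day 147 and in 77.9% of those at 16-fold or more (194 of 249), with 87 and 1 genes opposite. At days 35 and 39 these shares were 53.5% and 77.5%, with 464 and 8 genes opposite. A higher share among 2-fold differences than among all calls was thus seen at day 21 and not at days 35 and 39. Genes called the same way at all 3 ages numbered 3178, or 31.1% of the day 147 list, 1699 higher and 1479 lower in GRZ-D, and 1252 of them differed at least 2-fold at day 147. Another 2325 genes were called at day 147 and at neither of the younger ages, which does not show that their difference changed.

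**Figure D3:**
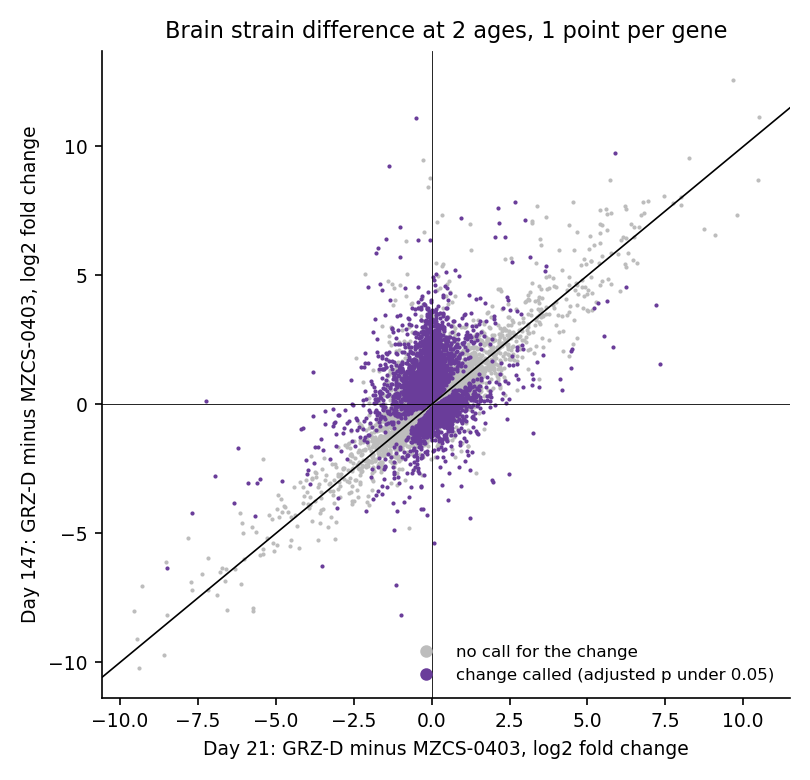
Log2 fold change of GRZ-D against MZCS-0403 in brain at day 21 (horizontal axis) and at day 147 (vertical axis), 1 point per gene for 20714 genes, with the line of equal values. Purple points are the 6626 genes whose strain difference changed between the ages; the largest differences of both ages lie along the line, and many purple points lie near 0 at day 21.

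Mean brain profiles place the day 147 groups among the ages. Over the 20714 genes, the mean profile of MZCS-0403 at day 147 was nearest to that of MZCS-0403 at day 287, with a root mean square log2 difference of 0.53 and a correlation of 0.981. To its own strain at day 21 and day 39 the difference was 0.91 in each case. The GRZ-D profile of day 147 was nearest to that of GRZ-D at day 35 (0.43), followed by day 100 (0.53) and day 21 (0.60). From GRZ-D at day 147, the distance to MZCS-0403 was 0.81 (day 287), 0.87 (day 21), 0.91 (day 147) and 0.92 (day 39). The groups have 2 to 8 fish, a mean over fewer fish holds more noise, and these distances have no test.

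The change of the strain difference between day 21 and day 147 was tested directly, as an interaction. It was called in 6626 of 20714 genes (32%), 3452 with a more positive and 3174 with a more negative difference of GRZ-D to MZCS-0403 at day 147. An unadjusted p under 0.05 was reached by 8872 genes. Changes of at least 2-fold were mostly positive, 1578 against 340. The genes had been filtered on the libraries of day 147 alone, and the part of this filter in that excess was not tested. The split of all calls depended on the library to which TMM scales the others, so it gives no direction. With all 42 libraries kept and only this reference changed, to GRZ-D replicate 1 of day 35, 3006 positive and 4461 negative changes were called. In 23 fits that each left out 1 library of day 147 or day 21, this reference was a GRZ-D library of day 100 in 13, as with all libraries, and these called 2917 to 3551 positive and 2520 to 3202 negative changes. It was a GRZ-D library of day 35 in the other 10, and these called 2521 to 3061 positive and 3613 to 4486 negative changes. The median log2 change of all genes was -0.01 with all libraries and moved to between -0.07 and -0.06 in these 10 fits. With all 84 libraries in the fit, 2434 genes were called, 1622 positive and 812 negative. Between day 21 and day 147, the median size of a gene's log2 change was 0.28 in GRZ-D and 0.38 in MZCS-0403, and it was larger in MZCS-0403 in 62.6% of all genes. The MZCS-0403 change rests on 6 and 3 fish and that of GRZ-D on 8 and 6, and the part of this in the sizes was not tested.

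Named genes for this change had the largest interaction in each direction among those called in every fit without 1 day 147 library. At day 21 Nfu_g_1_007603 had overlapping levels, with 3.76 to 17.2 CPM and a median of 13.2 in GRZ-D, and 10.5 to 24.4 CPM and a median of 17.3 in MZCS-0403. At days 35 and 39 the strains were apart, with 6.92 to 38.2 CPM in GRZ-D and 0.504 to 1.51 CPM in MZCS-0403 (log2 fold change 4.34; edgeR, adjusted p = 4.63e-04). At day 147 it had 0 counts in all 3 MZCS-0403 libraries, and in GRZ-D it had 0.676, 6.89, 1.23, 1.09, 53.7 and 0.666 CPM in replicates 1 to 6. Every GRZ-D fish was above every MZCS-0403 fish, but the mean of 10.7 CPM was carried by replicate 5. The bound against the floor was at least 65.6-fold, and without replicate 5 it was at least 12.9-fold. The fitted interaction of 11.62 (SE 2.501; edgeR, adjusted p = 5.94e-04) depends on the added count, and it was 9.26 without replicate 5. Limma voom gave 7.19 with an adjusted p of 0.235, within a range of 1.25e-09 to 0.235 over the alternatives. In GRZ-D at day 100 the level was also low, at 0.0351 to 0.473 CPM. The MZCS-0403 males of day 287 had 2 and 0 counts, and the day 147 female had 0.

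Nfu_g_1_006766 showed a mixed pattern at day 21. GRZ-D replicate 5 had 22.1 CPM and the other 7 had 0.406 to 0.622 CPM, while MZCS-0403 had 27.1 and 11.2 CPM in replicates 2 and 3 and 0.166 to 0.780 in the other 4. At day 147 GRZ-D had 1.39, 1.67, 1.38, 15.3, 2.66 and 10.3 CPM in replicates 1 to 6, and the MZCS-0403 libraries had 3, 2 and 2 counts, with 3 in the female. All GRZ-D fish were above all MZCS-0403 fish at day 147, and the strains overlapped at day 21. The interaction was 6.74 (SE 2.07; edgeR, adjusted p = 0.0119) and 6.12 without GRZ-D replicate 4. It was 9.28 without GRZ-D replicate 5 of day 21 and 5.35 without MZCS-0403 replicate 2 of day 21, the fish with high levels named above. Limma voom gave 5.69 with an adjusted p of 0.144, within a range of 1.21e-04 to 0.144 over the alternatives.

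Nfu_g_1_017567 was low in both strains at day 21, with 0.208 to 0.853 CPM and a median of 0.322 in GRZ-D, and 0.0528 to 0.724 CPM and a median of 0.230 in MZCS-0403. At day 147 it was 10.9, 13.7 and 3.455 CPM in MZCS-0403 and 0.580 to 0.8005 CPM in GRZ-D, with a median of 0.705. The strains thus went from overlapping ranges to separate ones. The interaction was -4.25 (SE 0.77; edgeR, adjusted p = 6.21e-05), and it ran from -4.70 to -3.87 without 1 library of day 147. Day 39 was mixed in MZCS-0403, at 1.47, 3.80, 0.586 and 11.02 CPM, the day 287 males had 7.34 and 8.61 CPM, and the day 147 female had 17.9 CPM.

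Nfu_g_1_016524 had 43.2, 26.5 and 70.3 CPM in MZCS-0403 at day 147 and 0.995 to 2.08 CPM in GRZ-D, with a median of 1.61. At day 21 GRZ-D had 0.475 to 1.73 CPM with a median of 1.09. MZCS-0403 had 0.422 to 0.747 CPM in 5 of its 6 day 21 fish and 12.99 CPM in replicate 3. The interaction was -3.68 (SE 0.90; edgeR, adjusted p = 0.00200), and it ran from -3.96 to -3.31 without 1 library of day 147. Without MZCS-0403 replicate 3 of day 21 it was -5.88. All 4 MZCS-0403 males of day 39 were high too, at 14.6 to 22.4 CPM, and the day 147 female had 45.8 CPM. The day 287 males were split, with 0.321 and 17.0 CPM.

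**Figure D4:**
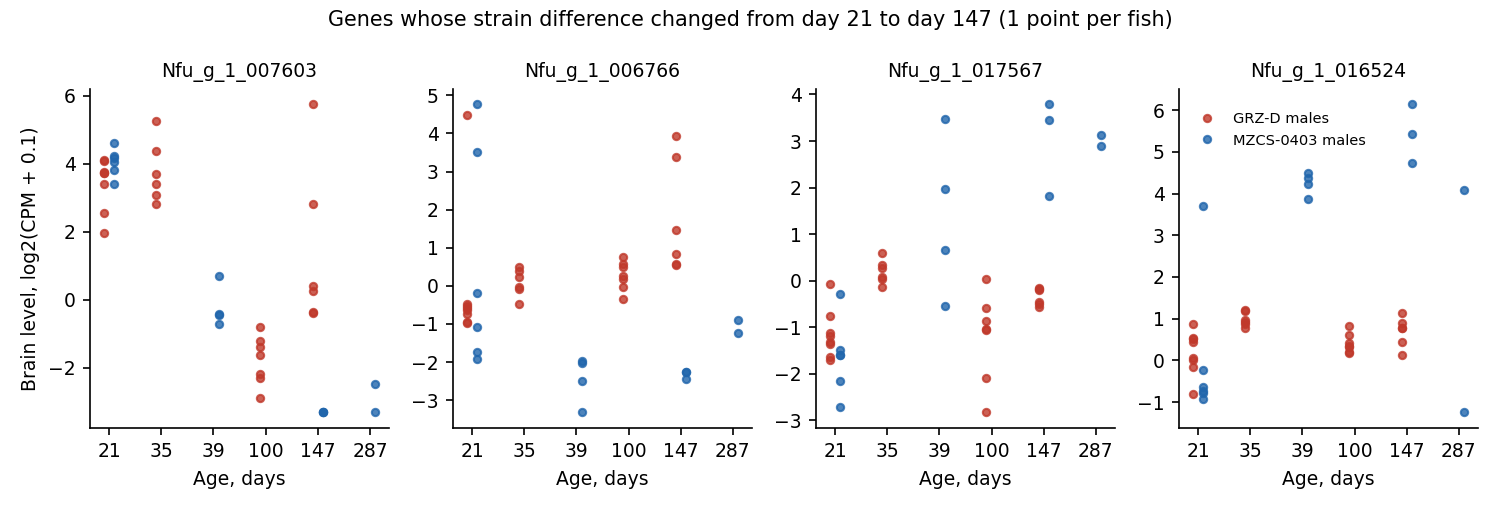
Brain level, as log2 of CPM plus 0.1 (vertical axes), by age in days (horizontal axes, categories not to scale) of the 4 genes named for a changed strain difference; red points are GRZ-D and blue points MZCS-0403 males, 1 point per fish. The strains overlap at day 21 in all 4 genes and are separate at day 147. Single fish lie far from their group, among them fish in the 2 genes on the left and MZCS-0403 replicate 3 of day 21 in Nfu_g_1_016524.

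The skin of the same 9 fish was set beside the brain. In skin at day 147, 5837 of 19874 genes differed (29.4%), 3345 higher and 2492 lower in GRZ-D. Of 18558 genes tested in both tissues, 3160 were called in both, and 2720 of these (86.1%) had the same direction. They were 29.5% of the 9216 brain calls and 49.3% of the 5515 skin calls. In either direction, 3160 of the 9216 brain calls were called in skin, against 5515 of all 18558 genes. Being called in both tissues was thus not far from the share over all genes. The log2 fold changes of the tissues correlated at 0.496 across genes, which are not independent. The tissues share fish but no library.

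Whether the strain difference depended on the tissue was tested with the fish as a block. The interaction was called in 1401 of 22298 genes (6.28%), 938 with the more positive difference in brain and 463 with the more negative. An unadjusted p under 0.05 was reached by 5202 genes. This count rested on few fish: it was 574 without MZCS-0403 replicate 1, 435 without replicate 3 and 574 without replicate 4, and 978 to 1546 without a GRZ-D fish. Limma voom gave 3222 genes.

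**Figure D5:**
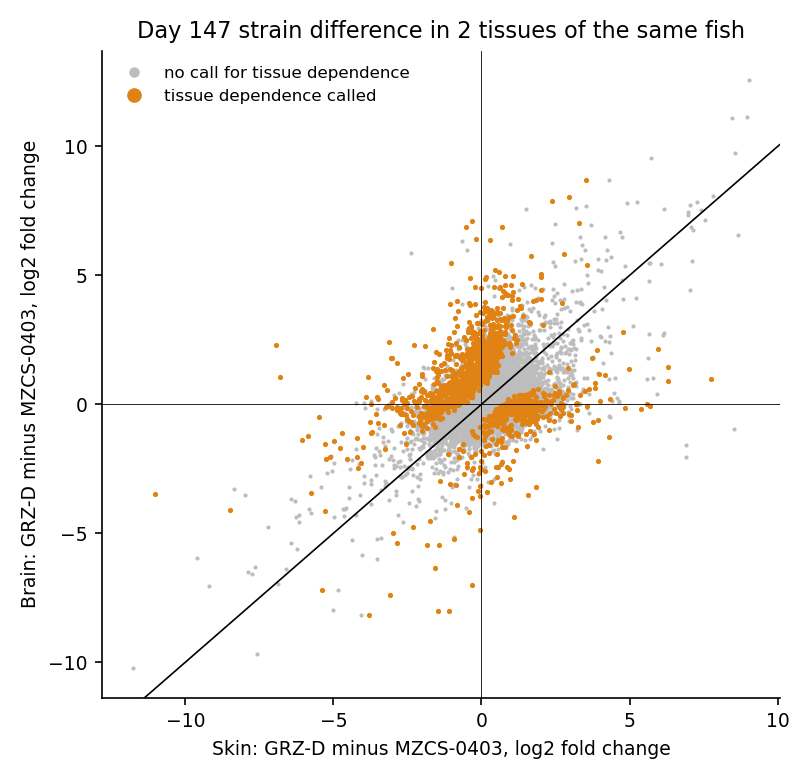
Log2 fold change of GRZ-D against MZCS-0403 at day 147 in skin (horizontal axis) and brain (vertical axis) for the 18558 genes tested in both tissues, with the line of equal values. Orange points are genes whose strain difference depended on the tissue; most other points lie near the line or near 0.

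Nfu_g_1_023607 and Nfu_g_1_011507 were higher in GRZ-D in brain and far lower in skin. Nfu_g_1_023607 had 4.16 to 5.26 CPM with a median of 4.55 in GRZ-D brain, and 1.12, 1.03 and 0.674 CPM in MZCS-0403 brain. In skin GRZ-D had 0.0932 to 0.586 CPM, and MZCS-0403 had 39.4, 40.5 and 17.4 CPM. The strains did not overlap in either tissue, and their order was opposite. The log2 fold change was 2.30 in brain (adjusted p = 1.33e-08, edgeR) and -6.93 in skin (adjusted p = 6.77e-16, edgeR). The brain value exceeded that of skin by 9.32 (SE 0.48; edgeR, adjusted p = 1.62e-05). In brain this gene did not differ by strain at day 21 beyond the test's threshold (0.02, adjusted p = 0.939, edgeR). At days 35 and 39 it was lower in GRZ-D (-0.54, adjusted p = 0.0215, edgeR), opposite to day 147. The MZCS-0403 female had 1.13 CPM in brain and 14.3 CPM in skin.

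Nfu_g_1_011507 had 7.24 to 9.20 CPM with a median of 8.86 in GRZ-D brain, and 5.402, 3.81 and 3.24 CPM in MZCS-0403 brain. In skin it had 0.06215 to 1.17 CPM in GRZ-D and 51.6, 49.1 and 29.2 CPM in MZCS-0403. The log2 fold change was 1.06 in brain (adjusted p = 5.72e-05, edgeR) and -6.81 in skin (adjusted p = 5.03e-15, edgeR), a tissue difference of 8.19 (SE 0.65; edgeR, adjusted p = 2.75e-04). It was 7.86 to 8.92 without 1 fish. As in Nfu_g_1_023607, MZCS-0403 brains of day 21 were higher, at 11.9 to 17.8 CPM, than those of day 147. The GRZ-D mean was also higher at day 21 (12.7 CPM) than at day 147 (8.63 CPM). For Nfu_g_1_023607 the GRZ-D means were 7.90 and 4.65 CPM. At days 35 and 39 the gene was lower in GRZ-D brain (-0.63, adjusted p = 0.00209, edgeR). The MZCS-0403 female had 3.62 CPM in brain and 22.6 CPM in skin.

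Nfu_g_1_021311 was higher in GRZ-D in both tissues, with the smaller fold in brain. Brain levels were 12.4 to 15.1 CPM with a median of 13.5 in GRZ-D, and 7.79, 6.20 and 6.70 CPM in MZCS-0403 (log2 fold change 0.99, SE 0.12; edgeR, adjusted p = 9.71e-09). In skin GRZ-D had 0.789 to 1.43 CPM and all 3 MZCS-0403 libraries had 0 counts, at least 5.19-fold below. The fitted tissue difference of -7.33 (adjusted p = 0.00234, edgeR) depends on the added count, and limma voom gave -4.33. The MZCS-0403 female had 6.24 CPM in brain and 1 count in skin. Nfu_g_1_024408, the other gene with a more negative difference in brain, was nearly absent from brain, with at most 1 count in GRZ-D and 11, 3 and 2 counts in MZCS-0403, and was too low to be tested there. In skin it had 10.2 to 575 CPM in GRZ-D and 68.4, 136 and 7.89 CPM in MZCS-0403, with overlapping ranges and no call (log2 fold change 1.51, adjusted p = 0.0881, edgeR). The tissue difference of -6.03 (adjusted p = 0.00490, edgeR) rests on the few brain counts and on the added count, and had an adjusted p of 0.161 without the fish term, with values from 0.00324 upward under the other alternatives. The female had 9 counts of this gene in brain and 3.66 CPM in skin.

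The genes named for brain at day 147 can be set beside skin. Nfu_g_1_011306 was far higher in GRZ-D in skin too (13.2 to 25.8 CPM, against 0, 2 and 0 counts), and Nfu_g_1_007450 had 0 counts in every GRZ-D skin and 11.6, 11.9 and 28.05 CPM in MZCS-0403 skin. Nfu_g_1_018902 was higher in GRZ-D skin (log2 fold change 0.77, adjusted p = 0.00206, edgeR). Nfu_g_1_013001 went the other way, with 62.3 to 169 CPM in GRZ-D skin and 62.2, 74.8 and 66.5 CPM in MZCS-0403 skin (log2 fold change 0.77, adjusted p = 0.0372, edgeR). The MZCS-0403 female had 249 CPM in skin, above every GRZ-D male. For this gene the dependence on tissue narrowly missed the threshold (difference -1.68, adjusted p = 0.0536, edgeR).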

How the data were processed

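Total RNA of brain and skin of each fish was made into TruSeq RNA v2 libraries, per the labels. The authors deposited raw, whole-number counts per gene in a table of 168 columns, each matched to 1 sample. Per the submitters' processing notes, bcl2fastq 1.8.4, STAR 2.5.1b and featureCounts 1.5.0 were used. Genome build, annotation, strand setting and sequencing batch are not given in the sources used here. The library kit does not mark strand, so overlapping or antisense genes, and near-identical copies, cannot be told apart by ID.

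The analysis ran in edgeR 4.0.16 under R 4.3.3 (TMM scaling, robust quasi-likelihood fit, 1 mean per group of strain and age). Genes passed edgeR's filter at a minimum count of 10 over the 9 libraries compared. CPM are TMM-scaled. Correlations and principal components used log2 CPM with a prior count of 2. The SE of a log2 fold change was derived as its size divided by the square root of F. Tests across genes are 2-sided, with p-values adjusted by Benjamini-Hochberg over all genes tested. Skin was fitted in the same way, and the tissues together in the 9 fish with the fish as a block, since the labels give brain and skin per specimen. Replicate numbers are shared between strains but belong to different fish, so they were not used as pairs. GRZ-D males of day 49 were left out of the fits because their libraries go against the tissue label.

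The comparison, lists and rules were chosen with earlier results of these data known. For day 147, the rule named the gene of the largest absolute log2 fold change and of the largest CPM difference in each direction, among called genes without overlap and with at least 5 CPM in the higher strain. For the changes with age and tissue, it named the 2 largest interactions in each direction, called in every fit without 1 day 147 library or fish, with at least 5 CPM in a group. Bounds use a floor of 3 counts per library, at the shallowest library of the strain, and cover counting error only. The fits were tested on simulated data with known changes. These were set only in genes of ample counts, so recovery among genes of few or no counts was not tested. Only a small share of genes was changed, as many up as down. Scaling and false calls with as many differences as found here were thus not tested. DESeq2 1.42.0 and limma 3.58.1 (voom) gave alternatives, whose effect is described at the end. The p-values of the fits weigh a difference against the spread between fish. That spread was estimated per gene over all groups fitted, not in each group apart.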

Additional observations from a re-analysis of the deposited data

Results flagged for a closer look

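Among 55 groups of 4 to 10 libraries tested for the named genes, 10 had a library far from the others. The nominal rate of the test is about 1 group in 20. The genes were picked for extreme values and share libraries, so 10 of 55 cannot be weighed against that rate. At day 147 in brain the libraries flagged were GRZ-D replicate 3 for Nfu_g_1_007450 (0.186 CPM), GRZ-D replicate 5 for Nfu_g_1_007603 (53.7 CPM) and GRZ-D replicate 4 for Nfu_g_1_011507 (7.24 CPM). In skin of the same age they were GRZ-D replicate 3 for Nfu_g_1_011507 (1.17 CPM) and GRZ-D replicate 4 for Nfu_g_1_024408 (575 CPM). At younger ages in brain they were MZCS-0403 replicate 6 of day 39 for Nfu_g_1_007603 (1.51 CPM), GRZ-D replicate 5 of day 21 for Nfu_g_1_006766 (22.1 CPM), GRZ-D replicate 4 (0.853 CPM) and MZCS-0403 replicate 2 (0.724 CPM) of day 21 for Nfu_g_1_017567, and MZCS-0403 replicate 3 of day 21 for Nfu_g_1_016524 (12.99 CPM).

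The genes that follow were named for the largest interactions called, so their calls were fixed by that choice and add no evidence. By the test of the interaction (edgeR), the strain difference itself differed between day 21 and day 147 in Nfu_g_1_007603 (11.62 on the log2 scale), Nfu_g_1_006766 (6.74), Nfu_g_1_017567 (-4.25) and Nfu_g_1_016524 (-3.68). It differed between brain and skin at day 147 in Nfu_g_1_023607 (9.32), Nfu_g_1_011507 (8.19), Nfu_g_1_021311 (-7.33) and Nfu_g_1_024408 (-6.03). The last value comes from a gene near 0 in brain and not called in skin, and its adjusted p without the fish term was 0.161 (edgeR). The changes with age of Nfu_g_1_007603 and Nfu_g_1_006766 did not pass the threshold with limma voom. That of Nfu_g_1_006766 did not pass it with the replicate block either, as given below.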

How the results depend on the processing

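Of 263 values recomputed for the 12 named genes, 259 kept direction and side of the threshold, 4 kept direction without passing it and 0 reversed. The genes were chosen for large differences, and 8 of them for calls in every fit without 1 day 147 library or fish, so this tally does not show stability. Of 189 recomputed counts, 178 stayed within 1.5 times. With all 84 libraries labelled brain in the fit, the count was 5721 at day 147, 4299 at day 21, 6924 at days 35 and 39, 2434 for the change between ages and 1703 for genes called alike at all 3 ages. For tissue dependence, limma voom gave 3222 and the fit with no replicate block (no fish term) 2196, and leaving out 1 fish gave 435 to 1546. The cause was not tested.

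The other alternatives gave 7568 to 11145 genes at day 147, DESeq2 among them with 10561, of which 10114 were called in the same direction as in edgeR. Fitting only the 9 libraries gave 10742. Same-numbered fish of the strains did not deviate together at day 147 (correlations of -0.16, 0.02 and -0.16). The correlations ran from -0.23 to 0.25 at day 21 and from -0.15 to 0.07 at days 35 and 39. So few values cannot show whether the numbers mark pairs. With the replicate block, 7568 genes were called at day 147, 3630 higher and 3938 lower in GRZ-D, and 4085 for the change between ages. This fit also left out the GRZ-D males of day 100 and the MZCS-0403 males of day 287. Only numbers present in both strains at an age inform its strain difference, so the lower counts cannot be credited to the block alone. In this fit Nfu_g_1_006766 had an interaction of 5.86 (adjusted p = 0.125, edgeR).

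After the data were seen, leaving out each day 21 library was added, which gave 7577 to 8246 genes at day 21 and 6249 to 7547 for the change between ages. TMM with GRZ-D replicate 1 of day 35 as the reference library was added too, and gave 10640 genes at day 147, 8265 at day 21 and 7467 for the change. Also then, the 8 GRZ-D libraries of day 21 were found to fall apart by odd and even numbers in the genes given at the end, and the labels give no reason. With odd numbers only, 7531 genes were called at day 21, 6993 for the change between ages and 2741 alike at all ages, and with even numbers only 7244, 5792 and 2932. The change then split into 2422 positive and 3370 negative with even numbers, against 3638 and 3355 with odd. As described above, this split depends on the TMM reference library, which is not given for these fits, so it gives no direction. The 3 MZCS-0403 fish limit every result, and at these depths genes under the filter were not tested.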

Other observations

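In Nfu_g_1_023607, the even-numbered GRZ-D brains of day 21 had 9.11 to 10.6 CPM and the odd-numbered ones 5.22 to 6.41 CPM. In Nfu_g_1_011507 the even-numbered ones had 15.6 to 16.4 CPM and the odd-numbered ones 9.21 to 9.74 CPM. The MZCS-0403 brains of day 21 had 6.19 to 10.8 CPM and 11.9 to 17.8 CPM of these genes. This was noticed after the values were seen and has no test.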
